A study of Mus musculus with 8 samples.

Results

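Arpp21, Endou, Cd24a, Satb1 and Rora were taken as markers of CD4+CD8+ double-positive thymocytes, the immature T cells of the thymic cortex. They were followed here on every probe set of the Affymetrix Mouse 430 2.0 array that the platform annotation assigns to one of them alone. That rule gave 24 of 45037 probe sets, and 5 of the 18193 genes with a probe set of a single symbol. Rora had 9 of them, Arpp21 5, Satb1 5, Cd24a 3 and Endou 2. The series compared double-positive thymocytes of 4 mice titled Control with those of 4 titled Mutant, with 1 array per mouse, to ask what c-Myb deficiency does before positive selection. Mice were 4 to 5 weeks old and all lacked the T-cell receptor alpha gene (Tcra-/-), so their thymocytes cannot be positively selected through an alpha-beta receptor. All carried Cd4-Cre, in which Cre recombinase is driven by Cd4 regulatory sequence and acts from about the double-positive stage on. Cells were enriched on magnetic columns with antibody against CD4, without a label saying how pure they were.

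Within the labels, the genotype field calls the Control mice c-Myb sufficient and the Mutant mice c-Myb deficient. The source names run the other way, as they give Mybf/f Cd4-Cre Tcra-/- for the arrays labelled Control and Mybf/w Cd4-Cre Tcra-/- for those labelled Mutant. Groups are therefore named by title throughout, and every difference is Mutant minus Control as labelled. Myb itself did not settle the matter. Its brightest probe set, 1421317_x_at, read 8326 to 10388 on Control and 10512 to 11754 on Mutant arrays. On 1422734_a_at the ranges were 4183 to 5158 and 5458 to 6396, again higher on every Mutant array. On 1450194_a_at they were 6457 to 8464 and 7021 to 7706 and overlapped. No source used here says whether these probes lie in the floxed part. Xist, the RNA of the inactive X chromosome, was high in all 4 Mutant mice and in Control 1 (4129 to 5736) and read 23.4 to 36.7 in Control 2, 3 and 4. Array medians lay between 30.0 and 37.9 signal units, and no 2 arrays shared more than 271 of 45101 values. The 18S rRNA control (5′ probe set) read 7143 on Mutant 4 against 676 to 1459 elsewhere.

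A double-positive thymocyte has rearranged its T-cell receptor beta gene, opens the alpha locus with the Rag recombinase and lives for a few days while its receptor is tested. Arpp21 encodes an RNA-binding phosphoprotein that is abundant in the brain and in double-positive thymocytes. Endou encodes an endoribonuclease that cuts RNA at uridines. Cd24a encodes heat-stable antigen, a small GPI-anchored glycoprotein of immature thymocytes that is lost as they mature. Satb1 encodes a chromatin organizer that is highly expressed in thymocytes. Rora encodes a nuclear receptor that acts as a transcription activator, and its sites in clock gene promoters are shared with the Nr1d1 and Nr1d2 repressors.

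The Arpp21 gene also carries a microRNA gene, Mir128-2, which lies within its span on the same strand (RefSeq, GRCm38.p6, hairpin at chr9:112118636-112118711, minus strand). Its products are shown because any change of the Arpp21 transcript concerns their host, although the array did not measure them. The capitals mark the seed, bases 2 to 8.
mmu-miR-128-3p: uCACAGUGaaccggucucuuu
mmu-miR-128-2-5p: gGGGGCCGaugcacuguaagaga
The 3p sequence is also made from Mir128-1, which lies inside R3hdm1, a relative of Arpp21 with the same R3H RNA-binding domain. R3hdm1 read 1816 ± 85.6 (SD, n = 4) on Control and 1771 ± 114 on Mutant arrays, and did not pass the test (log2 -0.04 ± 0.08 SE, limma adjusted p = 0.836).

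Of the 5 genes, RefSeq's promoter table held windows for Arpp21, Satb1 and Rora. The 250 bases before the most upstream start of Arpp21, whose transcript fell, and of Rora, whose transcript rose, are shown with matches to the core of the Myb recognition sequence in capitals. The letters searched were AACTG and AACGG, on both strands, and no match overlapped another.
Arpp21, GRCm38.p6 chr9:112233723-112233972, minus strand: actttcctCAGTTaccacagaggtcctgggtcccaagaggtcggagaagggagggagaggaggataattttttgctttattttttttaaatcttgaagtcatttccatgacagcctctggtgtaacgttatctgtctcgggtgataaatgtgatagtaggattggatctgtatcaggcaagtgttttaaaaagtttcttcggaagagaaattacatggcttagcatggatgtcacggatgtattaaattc
Rora, GRCm38.p6 chr9:68653536-68653785, plus strand: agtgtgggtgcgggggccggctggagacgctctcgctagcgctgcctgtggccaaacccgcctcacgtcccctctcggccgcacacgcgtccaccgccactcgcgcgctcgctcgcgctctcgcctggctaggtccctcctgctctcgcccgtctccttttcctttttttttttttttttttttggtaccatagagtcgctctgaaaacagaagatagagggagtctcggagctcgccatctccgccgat
The Arpp21 window held 1 match, that of Satb1 held 1 and that of Rora held 0, while 48.6% of all 32851 windows of this length in the table held at least 1. RefSeq lists 9 windows for Arpp21 and 5 for Satb1, and the array does not say which start was used.

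Signals are the deposited intensities, which the authors had scaled so that each array had the same trimmed mean. Differences were tested with limma on log2(signal + 16) over the 22599 probe sets that read above 33.8, the table's median and here called the dim limit, on 4 or more arrays. On this scale the change of dim genes is understated. A probe set was called when its Benjamini-Hochberg adjusted p over all of these was at most 0.05. Of the 24 member probe sets 20 could be tested, and the 4 left out were all of Rora.

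Of the 20, 18 read above the dim limit on at least 2 arrays of each group, and of these 6 fell and 1 rose on Mutant arrays. The other 2, both of Rora, entered the test through the Mutant arrays alone, and 1 of them was called higher (8 calls in all). Over all probe sets tested 5.82% were called, 2.68% lower and 3.14% higher, with a median log2 difference of 0.008. The falls were those of Arpp21 (3 of 5 probe sets), Endou (2 of 2) and Cd24a (1 of 3), and the 1 rise was that of Rora 1424034_at. No Satb1 probe set was called. For 8 of the 18 every array of one group read above every array of the other, as did 14.3% of all probe sets tested. The smallest p that an exact two-sided permutation test over the 70 labellings of 8 arrays can give is 0.0286. All 8 reached it, as groups that do not overlap always do. With the Xist class of the mice in the model, which in effect sets the Mutant mice against Control 1 alone, 0 of the 20 were called, with Arpp21 at -0.73, Endou at -0.97, Cd24a at -0.39 and Rora at 0.94 on their brightest probe sets (adjusted p = 0.105, 0.171, 0.780 and 0.552) and the called Cd24a 1416034_at at -0.78 (adjusted p = 0.424). In RNA of a whole cell fraction, fewer cells of a type and less RNA per cell cannot be told apart.

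**Figure D1:**
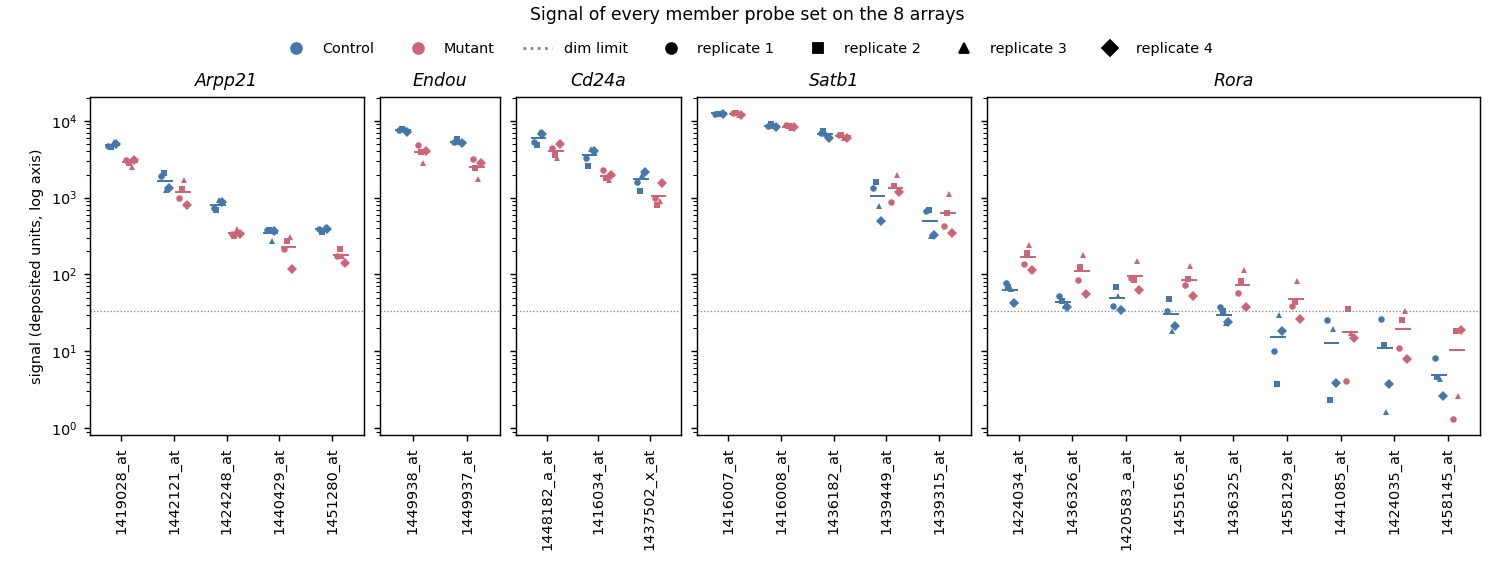
Signal on each of the 8 arrays (deposited units, log axis) for all 24 probe sets of the 5 genes, with a bar at each group's mean and a dotted line at the dim limit of 33.8. Endou lay between 7061 and 7888 on Control and between 2845 and 4803 on Mutant arrays on its brightest probe set, while all Rora signals were at or below 241.

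Endou fell on both of its probe sets, with Mutant levels at 51% and 46% of Control on the log2(signal + 16) scale. On 1449938_at the Control arrays read 7535, 7888, 7804 and 7061 and the Mutant arrays 4803, 3880, 2845 and 4045. Control mice thus lay within a narrow range, Mutant mice were spread more widely below it, and Mutant 3 was lowest. The difference was -0.98 ± 0.13 (log2, SE, n = 4 per group) with a limma adjusted p of 0.00207. The other probe set, 1449937_at, read 5224, 5776, 5357 and 5096 against 3193, 2424, 1751 and 2789. It ordered the Mutant mice in the same way and gave -1.11 ± 0.15 (adjusted p = 0.00236). Control 1, the Control mouse with high Xist, read above every Mutant mouse on both probe sets.

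Arpp21 fell on its brightest probe set, 1419028_at, from 4751, 4596, 5284 and 4960 to 3065, 2800, 2532 and 3089. Every Mutant array read below every Control array, and the log2 difference was -0.77 ± 0.08 (adjusted p = 0.000632). On the dimmer 1424248_at the Control arrays read 733, 699, 924 and 871 and the Mutant arrays 333, 316, 387 and 340. There the groups were further apart (-1.19 ± 0.12, adjusted p = 0.000507), with Mutant 3 highest and not lowest of its group. Probe set 1451280_at fell from 388 ± 24.9 (SD, n = 4) to 177 ± 30.7 (-1.07 ± 0.13, adjusted p = 0.00163).

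A further pair of Arpp21 probe sets overlapped between the groups and was not called. On 1442121_at the Control arrays read 1914, 2107, 1249 and 1316 and the Mutant arrays 992, 1277, 1685 and 804. Control 3 and 4 were as low here as Mutant 2, and Mutant 3 was higher than both of them. The difference was -0.48 ± 0.23 (adjusted p = 0.270). Probe set 1440429_at read 351 ± 52.1 on Control and 230 ± 84.1 on Mutant arrays (-0.65 ± 0.25, adjusted p = 0.168). Without Mutant 4 these differences were -0.31 for 1442121_at and -0.38 for 1440429_at. Neither of these differences was told apart from that of 1419028_at (exact permutation adjusted p = 0.643 and 0.771). Where these probes lie in the Arpp21 transcripts was not used here.

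Cd24a was lower on all 3 probe sets, and 1 passed. That one, 1416034_at, read 3304, 2593, 4350 and 4085 on Control and 2298, 1810, 1675 and 1963 on Mutant arrays. All Mutant mice lay below all Control mice, although Control 2 came near Mutant 1 (-0.86 ± 0.16, adjusted p = 0.0103). The brightest, 1448182_a_at, read 5289, 4846, 7219 and 6706 against 4490, 3546, 3288 and 4990. Mutant 4 lay above Control 2 there, and the difference missed the threshold (-0.56 ± 0.16, adjusted p = 0.0630). It passed without Control 2 (-0.66, adjusted p = 0.0404) and without Mutant 4 (-0.66, adjusted p = 0.0314). Probe set 1437502_x_at, of a type that can cross-hybridise, read 1736 ± 415 and 1065 ± 335 (-0.71 ± 0.21, adjusted p = 0.0847; adjusted p = 0.0149 with the replicate number as a block). Its call too turned on Control 2 and Mutant 4, with -0.86 and -0.90 and adjusted p = 0.0416 and 0.0171 without them. Between 1416034_at and 1448182_a_at the change was unequal by 0.30 ± 0.11 on the log2 scale, which did not pass over the 15 pairs of probe sets compared (exact permutation p = 0.0286, adjusted p = 0.286).

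Cd24a is not particular to thymocytes, since B cells, erythroid precursors and granulocytes carry it too. Of the markers of those cells, 0 of 2 tested B cell genes, 1 of 2 erythroid genes and 0 of 1 granulocyte genes were called. The share over all 9941 genes with 1 probe set each was 7.24%. The 1 was Car2, a carbonic anhydrase gene, which rose by 2.27 ± 0.24 (adjusted p = 0.000622). The summed signal of B cell markers was 7145 to 7377 on Control and 7665 to 8598 on Mutant arrays, mostly that of Ighm, and Cd79a was at or below the dim limit on all 8. For erythroid markers it was 272 to 486 and 1053 to 1527, with Hba-a1 and Klf1 at or below the limit throughout. For granulocyte markers it was 62.2 to 125 and 108 to 255, with Ltf, Camp, Elane and Mpo at or below the limit. Apart from Car2 no tested gene of these lists passed, and the part of such cells in the Cd24a result was not tested.

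Satb1 differed little between the groups on its bright probe sets, and none of its 5 was called. On 1416007_at the Control arrays read 12422, 12313, 12798 and 12415 and the Mutant arrays 12592, 12460, 12058 and 11801. The ranges overlapped and the difference was -0.03 ± 0.05, with a 95% interval of -0.13 to 0.07 (adjusted p = 0.758). Such signals lie near the top of the table, whose highest value was 18045.0, where array signals can saturate. Probe sets 1416008_at and 1436182_at differed by -0.04 and -0.12, with intervals of -0.15 to 0.07 and -0.27 to 0.04. Under quantile normalization 1416007_at differed by -0.14 and passed (adjusted p = 0.0465).

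The dimmer pair of Satb1 probe sets varied from mouse to mouse far more than the bright ones. On 1439449_at the Control arrays read 1339, 1595, 774 and 496 and the Mutant arrays 879, 1398, 1943 and 1193. On 1439315_at they read 677, 700, 313 and 326 against 429, 629, 1125 and 344. In both, Control 1 and 2 were high, Control 3 and 4 low, and Mutant 3 was highest of all. The differences, 0.44 ± 0.34 and 0.27 ± 0.37, did not pass (adjusted p = 0.515 and 0.733). Leaving out 1 array moved the difference of 1439449_at to between 0.13 (without Control 4) and 0.69 (without Control 2), and that of 1439315_at to between -0.05 (without Mutant 3) and 0.51 (without Mutant 4).

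**Figure D2:**
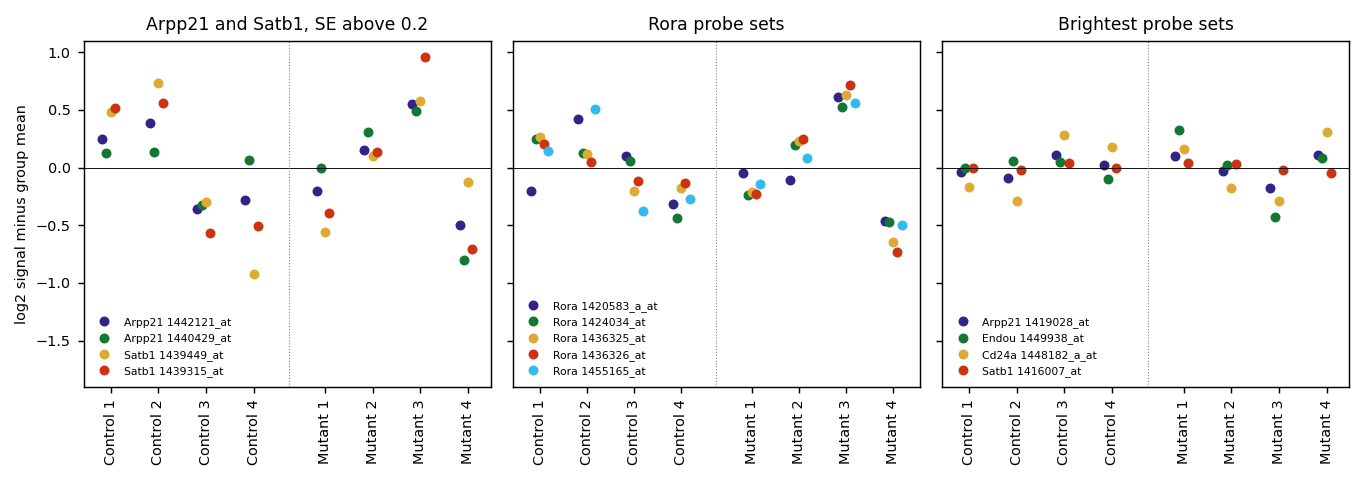
Log2(signal + 16) of member probe sets minus the mean of their own group, by array, for the Arpp21 and Satb1 probe sets whose difference had a standard error above 0.2, the tested Rora probe sets and the brightest probe sets of the other genes. In the left and middle panels Mutant 3 is highest and, for all but 1439449_at, Mutant 4 lowest of the Mutant arrays, while in the right panel Endou and Arpp21 are lowest on Mutant 3.

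Rora was the one member that rose, from a level close to the dim limit. It averaged 63.5 on Control arrays on its brightest probe set, against 4898 to 12487 for those of the other members. Rora was thus not a bright marker of these cells. On 1424034_at, its brightest probe set, the Control arrays read 77.1, 69.6, 65.5 and 41.9 and the Mutant arrays 135, 188, 241 and 113. All 8 were above the dim limit, the groups did not overlap, and the difference was 1.19 ± 0.23 (adjusted p = 0.0152). The call was lost without Mutant 2 (1.13, adjusted p = 0.0592). With a pseudocount of 1 the difference was 1.37 and with 64 it was 0.85, both called.

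The other 4 tested Rora probe sets differed in the same direction. On 1455165_at the Control arrays read 33.6, 47.9, 18.5 and 21.2 and the Mutant arrays 72.4, 86.9, 128 and 52.8 (1.12 ± 0.27, adjusted p = 0.0361). It and 1436325_at passed the filter through the Mutant arrays, as only 1 Control array of each was above the dim limit, so their place among the tested probe sets depends on the direction. The call of 1455165_at ended when any 1 of 6 arrays was left out (Control 1, 3 or 4, or Mutant 1, 2 or 3), with adjusted p up to 0.114, and it was not called with the replicate number as a block (adjusted p = 0.0503) or with no filter on dim probe sets (adjusted p = 0.0756). Probe sets 1436326_at, 1436325_at and 1420583_a_at differed by 0.99, 0.91 and 0.77 and missed the threshold (adjusted p = 0.0629, 0.0768 and 0.104). Without Mutant 4, 1436326_at and 1436325_at passed, at 1.23 and 1.12 (adjusted p = 0.0131 and 0.0229). They also passed with arrays centred on their medians, at 0.96 and 0.88 (adjusted p = 0.0359 and 0.0487), and with quantile normalization.

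The 4 untested Rora probe sets read at or below the dim limit on all Control arrays. Of these, 1458129_at averaged 15.5 on Control and 47.9 on Mutant arrays, where 3 of 4 passed the limit. The remaining 1441085_at, 1424035_at and 1458145_at had group means between 4.92 and 19.4, too dim to order.

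Within the Arpp21, Satb1 and Rora probe sets, 9 varied widely within groups (standard error above 0.2). These were 1442121_at and 1440429_at of Arpp21, 1439449_at and 1439315_at of Satb1 and the tested Rora probe sets. Among the Mutant arrays, Mutant 3 was highest on all 9. Control 1 and 2 both read above Control 3 and 4 on 8 of the 9, all but 1420583_a_at of Rora. This order did not hold for Cd24a 1437502_x_at, whose standard error was 0.21. There Control 1 and 2 read 1581 and 1231, below Control 3 and 4 at 1962 and 2168. Mutant 4 was the highest Mutant array there at 1555, and Mutant 3 read 894. Array medians were highest on Mutant 3 (37.9) and lowest on Mutant 4 (30.0) of the Mutant arrays, and higher on Control 1 and 2 (35.7 and 34.9) than on Control 3 and 4 (30.3 and 32.4). The 3′ over 5′ ratio of the actin control was 1.18 on Mutant 3, 1.31 on Mutant 4 and 1.23 to 1.28 elsewhere. With each array centred on its median, 1424034_at of Rora differed by 1.16 (adjusted p = 0.00581) and 1442121_at of Arpp21 by -0.51 (adjusted p = 0.164). What part RNA quality has in this order of arrays was not tested.

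Innate-like lymphocytes and gamma-delta T cells can express Rora. Of 3 tested markers of such cells Gzma, a granzyme gene, rose by 0.75 ± 0.11 (adjusted p = 0.00306) and the others did not pass. Over all 9941 genes with 1 probe set each 4.16% were called higher. Their summed signal was 2161 to 2654 on Control and 3294 to 4396 on Mutant arrays, mostly that of Gzma, while the defining Zbtb16, Ncr1 and Il17a were at or below the dim limit on all 8. Among 8 tested macrophage and dendritic cell markers and 3 stromal ones 0 were called; the sums were 496 to 980 against 824 to 1113 and 819 to 879 against 585 to 825. Ctss differed by 1.0 ± 0.29 (adjusted p = 0.0702) and Pecam1 by -0.36 ± 0.15 (adjusted p = 0.190), and 5 stromal genes, Foxn1 among them, were at or below the limit throughout. The part of these cells in the Rora result was not tested.

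**Figure D3:**
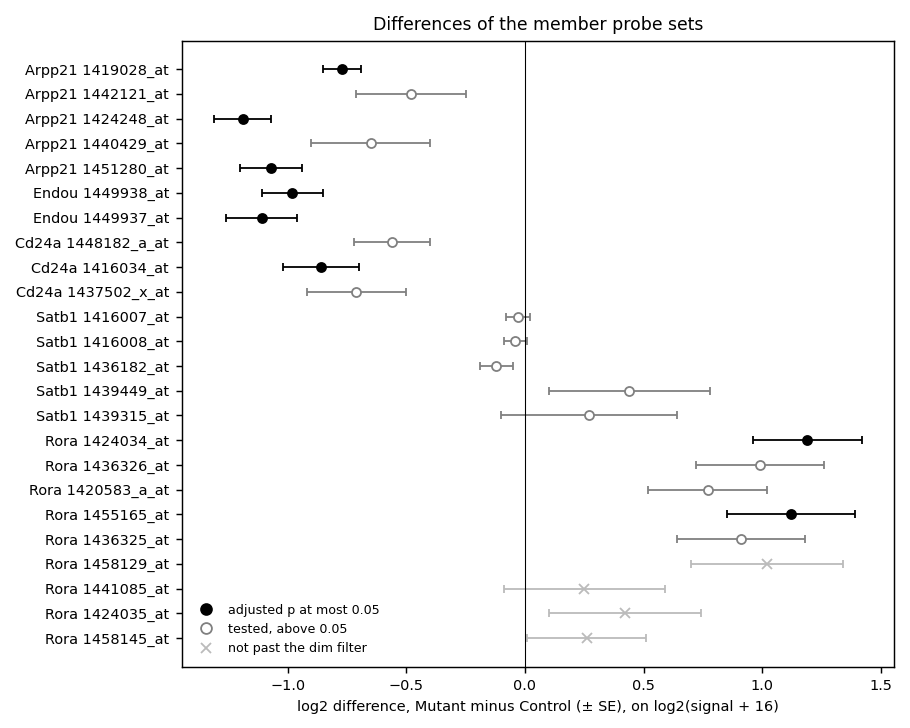
Log2 difference (Mutant minus Control, on log2(signal + 16)) with its standard error for all 24 probe sets, n = 4 arrays per group. Arpp21, Endou and Cd24a lie between -1.19 and -0.48, the bright Satb1 probe sets between -0.12 and -0.03, and the tested Rora probe sets between 0.77 and 1.19.

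Whether 1 member changed more than another was tested on the log2 ratio of their brightest probe sets within each array, for all 10 pairs. In 6 of the 10 the exact permutation test passed after adjustment (p = 0.0286, adjusted p = 0.0476). Arpp21 and Endou fell relative to Satb1, with changes of the ratio of -0.74 ± 0.08 and -0.95 ± 0.15 (log2, SE), where the Satb1 probe set is the one whose signals may saturate. Relative to Rora, Arpp21 changed by -1.96 ± 0.33, Endou by -2.17 ± 0.38, Cd24a by -1.75 ± 0.44 and Satb1 by -1.22 ± 0.27, and in each the groups did not overlap. Arpp21, Endou and Cd24a were not told apart from each other, with ratio changes of 0.21 ± 0.12 for Arpp21 over Endou, -0.21 ± 0.13 for Arpp21 over Cd24a and -0.42 ± 0.19 for Endou over Cd24a (adjusted p = 0.143, 0.171 and 0.159). Cd24a against Satb1 changed by -0.53 ± 0.19 and did not pass (adjusted p = 0.0816). Without Control 3 or Control 4, 0 of the 10 pairs passed, with similar sizes (-0.71 and -0.73 for Arpp21 over Satb1, adjusted p = 0.0571 in both), and without any 1 other array 6 or 7 did. Pairs at the smallest p that the exact test can give share an adjusted p, so they pass or fail together. These counts thus do not measure each pair by itself. With 1 array left out, Arpp21 over Endou passed without Mutant 1 (0.29, adjusted p = 0.0408) and Cd24a over Satb1 without Mutant 4 (-0.65, adjusted p = 0.0408). Of the 15 pairs of probe sets within a gene 0 passed, and 1 had an unadjusted exact p under 0.05.

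Other genes of the double-positive stage were taken as a list of 22, of which 20 could be tested. Of these 7 fell, 0 rose and 13 did not pass, against 3.08% lower and 4.16% higher of the 9941 genes with 1 probe set each. Like the other lists, this one was chosen with earlier results of these data known, so its count is not independent support. The list's median difference was -0.25, and that of all these genes 0.019. Cxcr4, a chemokine receptor that holds double-positive cells in the cortex, read 4221, 4194, 4478 and 4464 on Control and 1543, 1162, 768 and 1791 on Mutant arrays (-1.78 ± 0.21, adjusted p = 0.00118). Aqp11, an aquaporin family gene, read 2739, 2832, 3756 and 3528 against 1236, 1088, 915 and 1471 (-1.44 ± 0.15, adjusted p = 0.000622). Both were lowest on Mutant 3, as Endou was. The brightest probe sets of Arpp21 and Cd24a were too, so this order is not particular to Endou, while Rag2 was lowest on Mutant 2. The other falls were Sh2d1a, Slamf1, Slamf6, Cd1d1 and Rag2. The genes that define the stage stayed bright in both groups: Cd8a read 10714 and 11073, Cd8b1 11024 and 11336, Rag1 11396 and 10824 and Cd4 3961 and 3704 on average in Control and Mutant arrays, and none of these 4 passed.

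The lists of the neighbouring stages held more rises than falls, where 4.16% of the 9941 genes with 1 probe set each were called higher and 3.08% lower. Of 13 tested mature single-positive genes 7 rose and 1 fell (median 0.57). The rises were led by Ccr7, a chemokine receptor (60.1 ± 43.1 to 824 ± 87.0), and the integrin gene Itgb7 (112 ± 44.1 to 735 ± 280). They include Ccr4, whose Control mean of 22.2 ± 15.8 was below the dim limit (Mutant 142 ± 61.3). Its place among the tested genes may thus depend on the direction. Ms4a6b fell by 0.87. The call of Ms4a6b ended without Control 1 or 3 (adjusted p = 0.0556 and 0.0699). Of 8 tested double-negative genes 2 rose and 1 fell (median 0.62). Il2ra, the interleukin-2 receptor alpha chain, rose from 83.1 ± 76.3 to 753 ± 243 and Dtx1, a Notch pathway gene, from 107 ± 48.3 to 903 ± 543, with -0.08 on its other probe set. The repressor gene Gfi1 fell from 1883 ± 240 to 826 ± 176.

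Genes tied to Rora through the circadian clock were examined next. Of 11 tested ROR family and clock genes 4 rose and 0 fell, with a median of 0.37, against 4.16% higher and 3.08% lower of all 9941 genes. Nr1d1, a nuclear receptor that represses through ROR sites, read 12.0 to 40.9 on Control and 153, 163, 223 and 116 on Mutant arrays (2.16 ± 0.25, adjusted p = 0.000985). Npas2, a partner of the clock activator, read 66.1, 65.9, 23.5 and 27.3 against 137, 209, 226 and 134 (1.69 ± 0.28, adjusted p = 0.00670). Nr1d1 was above the dim limit on 1 Control array only, so its place among the tested genes and the rises depends on the direction. Nr1d1 and Npas2 were both highest on Mutant 3, as Rora was. Ccr7, Itgb7, Il2ra and Dtx1 of the other lists were too, so this order is not particular to Rora and clock genes. Among other rises, Car2 was highest on Mutant 4 and Gzma on Mutant 1. The other rises were those of Dbp, a clock output factor (269 ± 33.1 to 613 ± 111), and Clock (155 ± 33.9 to 258 ± 32.9, with a further probe set at -0.03). Arntl, the activator gene that ROR and Nr1d factors regulate, read 1239 ± 197 and 962 ± 34.5 and did not pass (-0.35 ± 0.11, adjusted p = 0.104). The hour at which mice were killed is not in the labels, and its part in these values was not tested. Rorb, Hlf, Bhlhe40 and Bhlhe41 were at or below the dim limit on all arrays.

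Of 11 tested genes linked to Satb1, as reported targets or partners, 1 rose (Il2ra) and 1 fell, with a median of 0.01. Over all 9941 genes with 1 probe set each 7.24% were called. The fall was that of Rag2, which read 4240, 3987, 4104 and 3980 on Control and 3168, 2738, 3127 and 3266 on Mutant arrays (-0.41 ± 0.07, adjusted p = 0.00865). Foxp3 and Il2 were at or below the dim limit.

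Among 9 tested calmodulin and protein kinase A genes, chosen because brain Arpp21 is a kinase A substrate linked to calmodulin, 1 fell and 0 rose (median 0.01). The share called over all 9941 genes was 7.24%, so 1 of 9 is not read as a result about the list. Camk4, a calmodulin-dependent kinase of thymocytes, read 2968, 3525, 2641 and 2252 on Control and 1635, 1584, 1248 and 1426 on Mutant arrays (-0.93 ± 0.14, adjusted p = 0.00326). Its 3 other probe sets were also called, from -1.50 to -0.83. Camk2d, a further kinase of the family, missed the threshold on its brightest probe set (0.73 ± 0.23, adjusted p = 0.0899), while 2 of its 5 others were called. None of 9 R3H family and endoribonuclease genes (median -0.04), 8 GPI-anchored surface genes (median 0.19) or 4 Cd24 partners and Src family kinase genes (median -0.13) was called. Their brightest members were R3hdm1, Thy1 (11218 ± 398 and 12135 ± 505, log2 0.11 ± 0.05, adjusted p = 0.242) and Pag1 (4615 ± 323 and 4384 ± 296, -0.07 ± 0.07, adjusted p = 0.629). Siglecg, which encodes a receptor for Cd24, was at or below the dim limit.

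**Figure D4:**
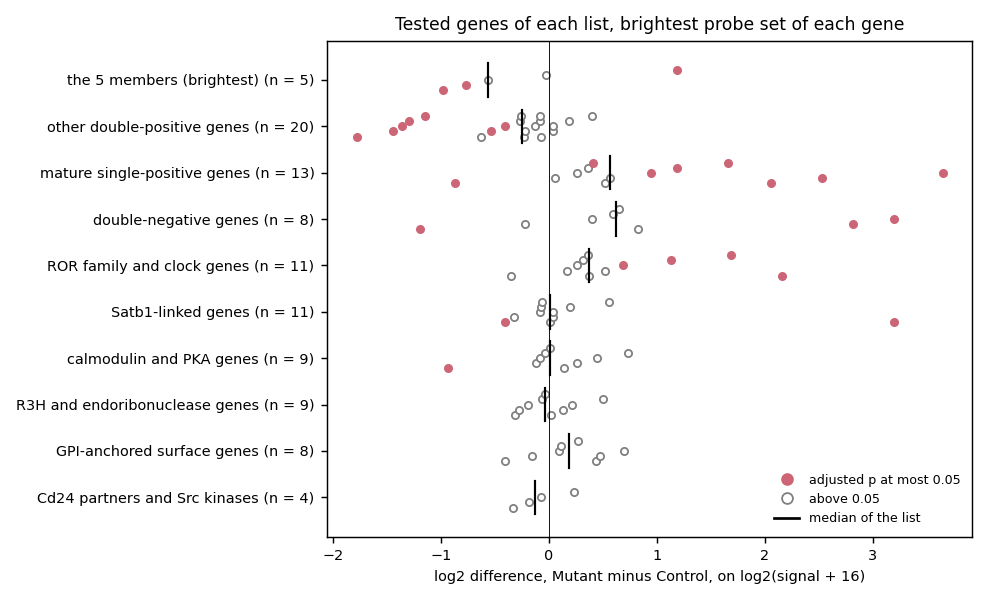
Log2 difference (Mutant minus Control, on log2(signal + 16)) of each tested gene's brightest probe set, for the 5 members and 9 gene lists, with called genes filled and the list median as a bar. Ccr7 at 3.65 and Cxcr4 at -1.78 are the extremes.

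The genes most like each member were sought by correlating deviations from group means over the 8 arrays, which leaves the group difference out. For Endou these were Pip5k1b, a phosphoinositide kinase gene (r = 0.998, rho = 1.0), which also fell (log2 -1.14, adjusted p = 0.0193), and Sin3a, a corepressor gene (r = 0.975, rho = 0.83). Without the 2 arrays farthest from the median r was 0.97 and 0.84. For Arpp21 they were Wdr73 and Pde12 (r = 0.993 and 0.989), for Cd24a Snrpg and Pogk (0.993 and 0.991), for Satb1 Nop53 and Zmym3 (0.977 and 0.972) and for Rora Sec31a and Ankrd12 (both 0.989). For these 8 genes rho was 0.83 to 1.0, r without the farthest arrays 0.95 to 1.0, and none was called. As these are the highest correlations of all tested probe sets over 8 arrays that share their mice and scaling, no p is given. The 100th probe set in rank still had r of 0.862 to 0.951.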

How the data were processed

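Each of 8 Mouse 430 2.0 arrays held biotin-labelled cRNA of 1 mouse (4 Control, 4 Mutant, by title). The authors deposited linear intensities from GCOS, the scanner maker's program, as the submitters' processing notes say (settings not given in the sources used here). Per the values, the 2% trimmed mean was 250.0 on every array, which removes differences in RNA per cell. Detection calls, scan dates and chip batches were not used here, so batches were not tested, and the number of arrays limits the precision. The labels call the arrays biological replicates.

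The 64 control probe sets among 45101 were dropped. The annotation gave 34945 probe sets 1 symbol, 932 several and 9160 none. Signals were converted to log2(signal + 16) and fitted in R 4.3.3 by limma 3.58.1 (two-sided; lmFit, then eBayes with trend), and p-values were adjusted by Benjamini and Hochberg's method over 22599 probe sets above 33.8 on at least 4 arrays. All adjusted p-values are limma's unless an exact permutation test is named. The brightest probe set stands for a gene in the lists. Named genes are all member probe sets, up to 2 largest called rises and falls of each list (or its brightest tested gene), and the 2 most correlated genes per member; others were named after their values were seen. The members and lists were chosen with earlier results of these data known. Plots were drawn with matplotlib 3.10.9 in Python 3.11.15 from pandas 2.3.3 tables. The fit was tested on simulated data. Sequences are from RefSeq tables of GRCm38.p6; all 5 symbols matched its gene table.

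The main fit did not pair mice by replicate number. Same-numbered arrays' deviations from group means correlated at -0.15, 0.18, -0.37 and 0.33 across probe sets, and differently numbered ones at -0.37 to 0.41. Such deviations cancel within each group, so these correlations cannot show whether mice were paired. Alternatives changed the pseudocount, dim filter, scaling, variance trend, array weights and probe set choice, added the replicate number or the Xist class, or left out each array.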

Additional observations from a re-analysis of the deposited data

Results flagged for a closer look

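Over 94 groups of 4 arrays, 3 had a single array standing well apart, where about 1 in 20 would by chance. None of the 3 came from Arpp21, Endou, Cd24a, Satb1 or Rora. Xist and the 18S rRNA control were added to the scan by name, so the count cannot be weighed against that share. Ms4a6b read 874 on Control 4 and 1028 to 1054 on the other Control arrays. Xist read 4358 on Control 1 and 23.4 to 36.7 on the others of that group. The 18S rRNA control read 7143 on Mutant 4 against 772 to 1459 on Mutant 1, 2 and 3.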

How the results depend on the processing

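Of 361 values of the 20 tested member probe sets under alternatives, 322 kept their direction and side of the threshold, 17 lost a call, 19 gained one and 3 reversed. With the Xist class (high or low, split at a signal of 1000) in the model, the Mutant arrays are set against Control 1 alone and 0 member probe sets were called, as were 0 list genes and 8 of 22599 probe sets in all. There Arpp21 differed by -0.73, Endou by -0.97 and Rora by 0.94 (adjusted p = 0.105, 0.171 and 0.552), and the reversed values were -0.04 for Satb1 1439449_at, -0.24 for Satb1 1439315_at and 0.01 for Pag1. The brightest Cd24a probe set was called under quantile normalization (-0.56), array weights (-0.69) and 1 probe set a gene (-0.56), and ranged from -0.66 to -0.46 when 1 array was left out; that of Satb1 was called under quantile normalization (-0.14). Rora ranged from 1.02 to 1.35 without 1 array, and Satb1 1439315_at from -0.05 to 0.51. Member calls numbered 13 with array weights, 4 with 1 probe set a gene (fewer tested) and 6 to 12 without 1 array, against 8. Calls in all numbered 2631 with array weights and 561 to 1493 without 1 array, against 1316, and list calls 39 with array weights against 25. Differences between probe sets of a gene reversed to 0.11 for Rora 1455165_at with a pseudocount of 1, and to 0.04 and 0.02 for Satb1 1416008_at and 1436182_at under quantile normalization, none past the threshold. With the replicate block, 8 member probe sets and 1081 in all were called. For the exact tests between probe sets, leaving out each array was added after seeing the data: 0 to 7 of the 10 pairs of members passed and 0 pairs within a gene. Within a gene the sign turned for Satb1 1416008_at (-0.02 to 0.01), Satb1 1439315_at (-0.03 to 0.52), Arpp21 1440429_at (-0.10 to 0.43) and Rora 1455165_at (-0.22 to 0.05), each minus its gene's brightest. Causes were not tested. Dim signals limit Rora, and bright ones Satb1.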
